A study of Mus musculus with 14 samples.

Results

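The subject here is a set of 9 mouse genes that encode the tuberous sclerosis (TSC) complex (Tsc1, Tsc2, Tbc1d7), its target Rheb, and the subunits of the kinase complex mTORC1 (Mtor, Rptor, Mlst8, Akt1s1, Deptor). They were chosen by gene symbol from the 55487 genes of the deposited tables, and all 9 symbols matched and passed the minimum of 10 counts set for each comparison. Under the stricter minimum of 50 counts, tried as an alternative, Tbc1d7 did not pass in macrophages. Their RNA levels were measured in 14 libraries made from sorted cells of the mouse colon, and no group was treated. The groups were Tsc2fl/fl Lyz2cre/+ macrophages (cre_LP, 3 libraries, all male), Tsc2fl/fl Lyz2+/+ macrophages (wt_LP, 3 libraries, 1 male and 2 females), Tsc2fl/fl Lyz2cre/+ epithelial cells (cre_EC, 4 libraries, 3 males and 1 female) and Tsc2fl/fl Lyz2+/+ epithelial cells (wt_EC, 4 libraries, 2 males and 2 females). The wt groups therefore carry the same floxed Tsc2 alleles without the recombinase. Lamina propria macrophages were gated as CD45, CD11b, CD64 and MHC class II positive cells, and epithelial cells by EpCAM and CD44. Cre is expressed from the lysozyme gene Lyz2, a gene of myeloid cells, so the epithelial cells of cre mice are neighbours of the cells in which the deletion is driven. No group carried Lyz2cre without the floxed alleles, so effects of the Lyz2cre allele and of the deletion cannot be told apart.

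The TSC complex is a brake on cell growth. Tsc2 (tuberin) switches off the small GTPase Rheb on the lysosomal surface, Tsc1 (hamartin) stabilises Tsc2, and Tbc1d7 is the third subunit. Active Rheb turns on mTORC1, in which the kinase mTOR works with the substrate-binding scaffold Raptor (Rptor) and with mLST8, while PRAS40 (Akt1s1) and DEPTOR restrain it. Most control of this switch is exerted on the proteins, by phosphorylation and by recruitment to lysosomes, which transcript counts do not measure.

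Each library held between 7269103 and 9364551 counts. Csf1r and Fcgr1 (the gene of CD64), which define macrophages, averaged 1996 ± 203 and 99.1 ± 14.4 CPM (counts scaled to a common library size, SD) in cre_LP and 1627 ± 132 and 95.7 ± 22.7 CPM in wt_LP. Epcam averaged 436 ± 56.1 CPM in cre_EC and 533 ± 68.5 CPM in wt_EC, so both sorted populations carried these transcripts. Of 8 epithelial markers, Cd44 included, 7 were lower and 1 was higher in macrophages than in epithelial cells, by the edgeR test described below. Between cre_EC and wt_EC, 1 of the 8 was higher and 2 were lower in cre_EC. Libraries of macrophages also held transcripts of other cells: the 5 B and plasma cell markers summed to between 3804 and 6898 CPM in cre_LP and between 1883 and 8574 CPM in wt_LP. Genes of ribosomal RNA took 19.1 to 26.4% of counts in cre_LP, 19.5 to 20.6% in wt_LP, 7.38 to 26.7% in cre_EC and 18.5 to 31.8% in wt_EC. One library stood apart in this respect, cre_EC 8, at 26.7% against at most 10.6% in the other cre_EC libraries. Mitochondrial genes took 10.4 to 10.7% of counts in cre_EC and 11.6 to 18.1% in wt_EC, without overlap. The titles carry 4 different numbers for wt, whereas the series text gives 3 control animals. If the text holds, a pair of wt_EC libraries would share an animal, and p-values in the epithelium would be too small.

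Between macrophages and epithelial cells, transcripts of the complex differed in nearly every member, and they did so in both directions. Rheb, Rptor, Tsc1 and Mtor were higher in macrophages, and Akt1s1, Deptor, Mlst8 and Tsc2 were lower, by edgeR's quasi-likelihood test with Benjamini-Hochberg adjustment at 0.05. That is 8 of 9 members (88.9%), where the test called 73.7% of all 16375 genes (39.4% higher and 34.3% lower), so differing between these cell types was common in the whole transcriptome. Between cre and wt cells, none of the 9 members passed the same test in either cell type. It called 0.944% of 14087 genes in macrophages and 9.17% of 13553 genes in epithelial cells. At an unadjusted p under 0.05 there were 2 members in macrophages (Mlst8 and Tsc1) and 1 in epithelial cells (Deptor), where 12.8% and 27.3% of all genes stood below that level. DESeq2 called 0 members in macrophages and 1 in epithelial cells, Deptor. The median log2 change of the members was -0.04 in macrophages and -0.03 in epithelial cells, beside 0.00 and -0.05 over all genes tested.

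**Figure D1:**
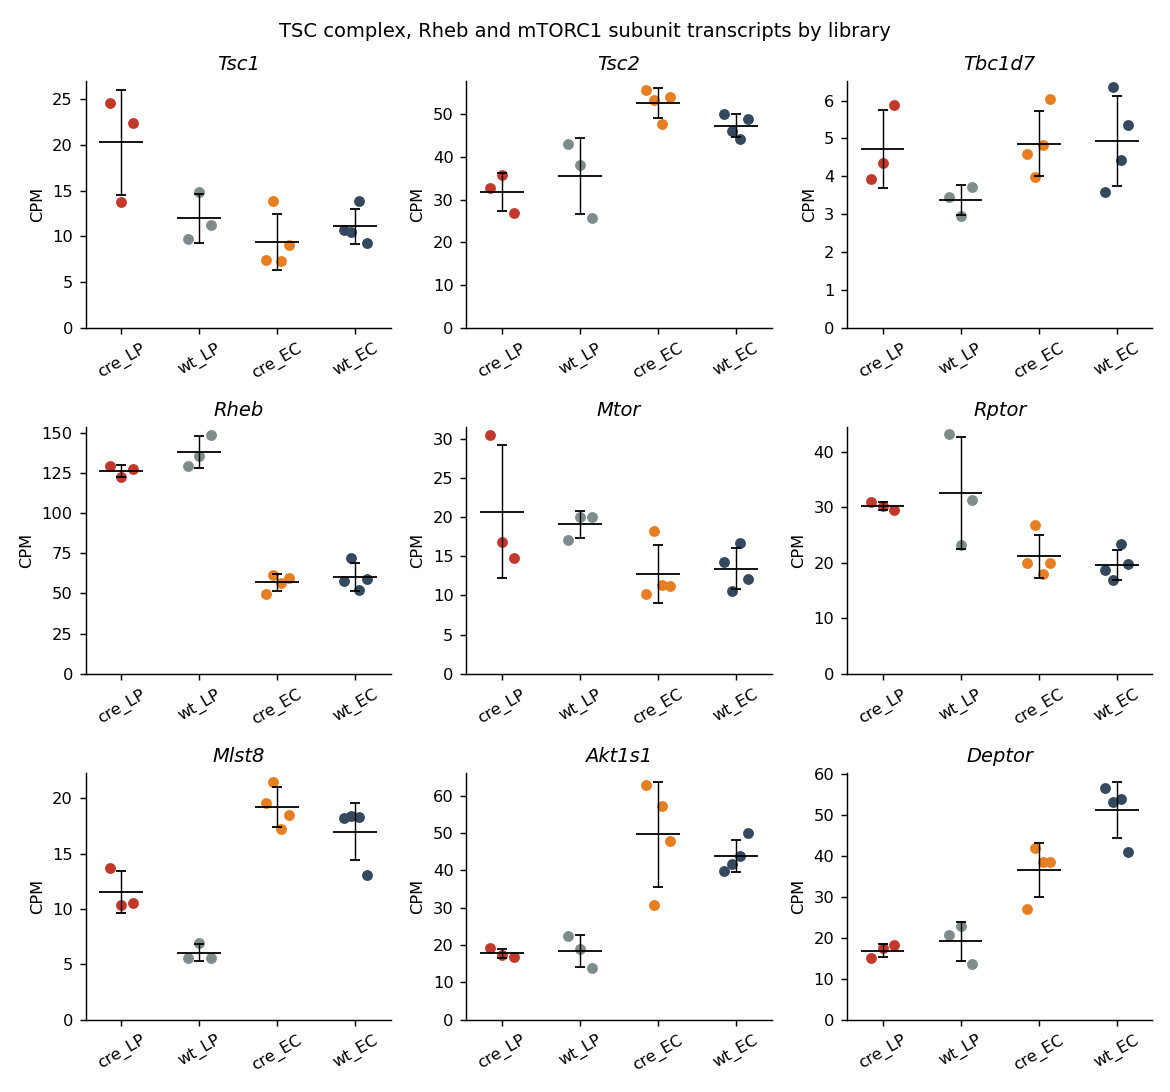
Level of each subunit transcript in CPM (counts scaled to the TMM library size) in the 14 libraries, by group: each point is a library, long bars are group means and error bars are the SD (n = 3, 3, 4 and 4). The vertical axes start at 0 and differ between panels; Rheb stands at 122 to 149 CPM in macrophages and at 49.8 to 72.2 CPM in epithelial cells.

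Tsc2 (ENSMUSG00000002496, chromosome 17, 24595816 to 24632630, minus strand, GRCm38), the gene carrying the floxed alleles, did not differ in level between cre and wt cells beyond the spread between libraries. Its counts corresponded to 32.7, 35.7 and 26.9 CPM in cre_LP 8, 9 and 10, against 42.9, 38.1 and 25.6 CPM in wt_LP 2, 4 and 6. The ranges overlap, and the lowest library was a wt one. The log2 value of cre_LP over wt_LP was -0.14 (SE 0.23, 95% interval -0.66 to 0.37, edgeR adjusted p = 0.860). In epithelial cells Tsc2 stood at 55.7, 53.3, 47.6 and 54.1 CPM in cre_EC 5, 8, 9 and 10, against 50.1, 46.1, 44.1 and 48.9 CPM in wt_EC 2, 4, 6 and 7. These ranges overlap too, and the log2 change was 0.14 (SE 0.11, 95% interval -0.09 to 0.38, edgeR adjusted p = 0.414). Tsc2 fell by 0.57 on the log2 scale in macrophages relative to epithelial cells (SE 0.12, edgeR adjusted p = 0.000357), and no macrophage library reached the lowest epithelial one. Which exons are floxed is not given in the sources used here, and reads from exons outside the floxed segment still count, so the gene-level value is a weak check of the deletion. In macrophages the log2 change was 0.31 with sex in the model and 0.32 in the 4 male libraries alone, with no call in either. Both values rest on wt_LP 6, the single male wt_LP library and the one with the lowest Tsc2, so sex and this library cannot be told apart; among males it was assumed to vary like the cre_LP ones.

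The Tsc2 locus limits what an unstranded count can assign. Pkd1, on the opposite strand, overlaps 693 exonic bases of Tsc2 (7.2% of its 9620 exonic bases), and Nthl1 starts 49 bases from the Tsc2 start and runs the other way. Pkd1 was 0.85 higher on the log2 scale in macrophages than in epithelial cells (SE 0.19, edgeR adjusted p = 0.000845), the direction opposite to that of Tsc2, and between genotypes neither Pkd1 nor Nthl1 passed the test. The window between the annotated starts of Tsc2 and Nthl1 is shown, from RefSeq on GRCm38.p6 (chr17:24632631-24632679, Tsc2 strand), because it is the whole space that separates the 2 genes.
Tsc2 to Nthl1 gap: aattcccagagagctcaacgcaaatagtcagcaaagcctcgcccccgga

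Tsc1 (ENSMUSG00000026812, chromosome 2, 28641228 to 28691167, plus strand) encodes the partner that stabilises Tsc2. It stood at 24.6, 13.8 and 22.4 CPM in cre_LP, against 9.74, 14.9 and 11.3 CPM in wt_LP. Both cre_LP 8 and cre_LP 10 lay above every wt_LP library, while cre_LP 9 lay within the wt range. The log2 change of 0.77 (SE 0.29, 95% interval 0.10 to 1.43, unadjusted p = 0.0280) did not pass the adjustment over all genes (edgeR adjusted p = 0.314), and with the ribosomal RNA share as a covariate it was 0.32 (adjusted p = 0.966). In epithelial cells Tsc1 stood at 7.46, 13.9, 7.28 and 9.04 CPM in cre_EC, against 10.7, 10.5, 13.9 and 9.32 CPM in wt_EC, with overlapping ranges. The log2 change there was -0.25 (SE 0.23, edgeR adjusted p = 0.493). Tsc1 was 0.61 higher on the log2 scale in macrophages than in epithelial cells (SE 0.19, edgeR adjusted p = 0.00860), although the library ranges of the cell types overlap. Among male libraries alone that difference was 0.45 and was not called (edgeR adjusted p = 0.176).

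Tbc1d7 (ENSMUSG00000021368, chromosome 13, 43151740 to 43171501, minus strand), the third subunit, had the fewest reads of the set, between 20 and 66 counts a library. It stood at 3.93, 4.35 and 5.89 CPM in cre_LP, against 3.45, 2.95 and 3.72 CPM in wt_LP, so the macrophage groups did not overlap. Mlst8 and Tbc1d7 were the 2 of 9 members with separate ranges in macrophages, where 19.8% of all genes tested had them. The log2 change of Tbc1d7 was 0.50 (SE 0.37, 95% interval -0.34 to 1.33, edgeR adjusted p = 0.654), which did not pass the test. In epithelial cells it stood at 4.60, 3.99, 4.82 and 6.03 CPM in cre_EC, against 3.59, 6.34, 4.44 and 5.36 CPM in wt_EC (log2 change -0.03, SE 0.25, edgeR adjusted p = 0.949). It was the 1 member that did not pass the test between cell types (log2 difference -0.30, SE 0.20, edgeR adjusted p = 0.193).

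Rheb (ENSMUSG00000028945, chromosome 5, 24802823 to 24842624, minus strand), the GTPase through which the TSC complex acts, had the highest level per transcript length of the set in macrophages. It stood at 129, 122 and 127 CPM in cre_LP, against 129, 136 and 149 CPM in wt_LP. In epithelial cells it stood at 49.8, 61.6, 56.3 and 59.7 CPM in cre_EC, against 57.6, 72.2, 51.8 and 59.0 CPM in wt_EC. The genotypes overlapped in both cell types, and the cell types lay far apart. The difference between cell types was 1.17 on the log2 scale (SE 0.09, 95% interval 0.98 to 1.37, edgeR adjusted p = 4.41e-09), and it was called under each alternative setting, between 1.09 and 1.29. The genotype change was -0.11 in macrophages (SE 0.14, 95% interval -0.43 to 0.20, edgeR adjusted p = 0.809) and -0.09 in epithelial cells (SE 0.12, 95% interval -0.36 to 0.17, edgeR adjusted p = 0.658). In macrophages no other member had a narrower interval.

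The promoters of 8 members were in the RefSeq table (GRCm38.p6, 250 bases before to 50 after the start); Deptor was not. They were searched for the letters CACGTG, an E-box that is its own reverse complement and is part of the sites bound by TFEB and TFE3, transcription factors held in check by mTORC1. Rheb and Tbc1d7 held it, 2 of 8, where 8.09% of 27025 genes with a promoter in the table did. The longer GTCACGTG, searched on both strands and overlapping the first motif, was found in Rheb alone of the members and in 2.55% of all these genes. The windows are shown because these are the 2 members with the motif, 1 with the largest rise in macrophages over epithelial cells and 1 with no called difference. They are chr5:24842440-24842469 and chr13:43171537-43171566 (gene strand, E-box in capitals), with the motif at position -96 and -53 from the RefSeq start. The RefSeq start of Rheb lies downstream of the start of the gene span given above (24802823 to 24842624, minus strand). Its window therefore lies inside that span.
Rheb: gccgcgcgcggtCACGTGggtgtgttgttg
Tbc1d7: ccggttaacatcCACGTGtgggtgggactc
A match is a description of the letters and not of binding.

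Mtor (ENSMUSG00000028991, chromosome 4, 148448611 to 148557683, plus strand), the kinase itself, stood at 30.4, 16.8 and 14.8 CPM in cre_LP, against 17.1, 20.1 and 20.1 CPM in wt_LP. The single library cre_LP 8 held the highest value, and the other cre_LP libraries lay below all wt_LP ones. The log2 change was 0.12 (SE 0.29, 95% interval -0.54 to 0.79, edgeR adjusted p = 0.913), and without cre_LP 8 it was -0.25. In epithelial cells it stood at 10.1, 18.2, 11.3 and 11.1 CPM in cre_EC, against 14.3, 10.6, 16.7 and 12.1 CPM in wt_EC (log2 change -0.10, SE 0.21, edgeR adjusted p = 0.808). The highest of these, cre_EC 8, was also the cre_EC library richest in ribosomal RNA. Mtor was 0.61 higher on the log2 scale in macrophages than in epithelial cells (SE 0.19, edgeR adjusted p = 0.00819), with overlapping ranges, and 0.50 among males (not called, edgeR adjusted p = 0.129).

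Rptor (ENSMUSG00000025583, chromosome 11, 119602905 to 119899576, plus strand) encodes Raptor, which presents substrates to the kinase. Its 3 cre_LP libraries were nearly equal at 31.0, 30.2 and 29.4 CPM, against 43.1, 23.2 and 31.2 CPM in wt_LP, and the wt range encloses the cre one. This was a log2 change of -0.09 (SE 0.23, edgeR adjusted p = 0.924). In epithelial cells Rptor stood at 19.9, 26.8, 17.98 and 19.9 CPM in cre_EC, against 18.6, 16.8, 23.3 and 19.7 CPM in wt_EC (log2 change 0.09, SE 0.16, edgeR adjusted p = 0.749). It was 0.62 higher on the log2 scale in macrophages than in epithelial cells (SE 0.14, edgeR adjusted p = 0.000913).

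Mlst8 (ENSMUSG00000024142, chromosome 17, 24473551 to 24479078, minus strand), which binds the kinase domain of mTOR and is shared with the second mTOR complex, mTORC2, showed the widest genotype difference of the set. It stood at 13.7, 10.3 and 10.5 CPM in cre_LP, against 5.59, 6.93 and 5.58 CPM in wt_LP. Every cre_LP library lay above every wt_LP library, on 66 to 83 counts in cre_LP and 42 to 47 counts in wt_LP. The log2 change was 0.94 (SE 0.28, 95% interval 0.30 to 1.58, unadjusted p = 0.00861), with an edgeR adjusted p of 0.194, so it did not pass the test over all genes. It did pass when all 14 libraries shared a single estimate of the spread (log2 change 0.93, edgeR adjusted p = 0.0336), in 1 of 18 alternatives. With the ribosomal RNA share as a covariate the log2 change was 0.82 (edgeR adjusted p = 0.834). Among males it was 1.05, a value that rests on the single male wt_LP library. In epithelial cells Mlst8 stood at 19.6, 21.5, 17.2 and 18.5 CPM in cre_EC, against 18.2, 18.4, 18.3 and 13.1 CPM in wt_EC, with overlapping ranges (log2 change 0.16, SE 0.16, edgeR adjusted p = 0.528). Mlst8 fell by 1.12 on the log2 scale in macrophages relative to epithelial cells (SE 0.14, edgeR adjusted p = 2.16e-06); the ranges of the cell types touch, through cre_LP 8 and wt_EC 7. Of the exonic bases of Mlst8, 22.48% are shared with Bricd5 on the opposite strand, which had 0 counts in all 14 libraries. Its neighbour Pgp, whose gene lies 440 bases away, had a log2 change of -0.08 between genotypes in macrophages (SE 0.18, edgeR adjusted p = 0.912). Between cell types Pgp was lower in macrophages, as Mlst8 was (log2 difference -2.27, SE 0.10, edgeR adjusted p = 2.58e-12).

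Beside the values of Mlst8 and Tsc1, sums of the markers of some other cells had separate ranges in the macrophage groups. The 6 fibroblast and smooth muscle markers summed to between 837 and 2455 CPM in cre_LP and between 2813 and 4723 CPM in wt_LP. The 5 dendritic cell markers summed to 49.4 to 80.0 CPM in cre_LP and 116 to 156 CPM in wt_LP, and the 5 T cell markers to 2.86 to 2.91 CPM in cre_LP and 8.91 to 10.8 CPM in wt_LP. The 9 macrophage markers summed to between 6815 and 8598 CPM in cre_LP and between 4556 and 6073 CPM in wt_LP. None of these sums overlapped between the genotypes, where 19.8% of all single genes tested had separate ranges. The 8 epithelial markers (659 to 867 CPM in cre_LP, 705 to 1019 CPM in wt_LP), the B and plasma cell markers given above and the 3 endothelial markers (36.1 to 295 CPM in cre_LP, 87.6 to 178 CPM in wt_LP) did overlap. The 5 granulocyte markers summed to 32.0 to 36.1 CPM in cre_LP and 37.9 to 51.0 CPM in wt_LP, also without overlap. The neutrophil genes S100a8 and S100a9 were at 0 in each wt_LP library. Single markers that passed the test were 1 of 9 macrophage markers, higher in cre_LP, and 1 of 5 dendritic cell markers, lower. No fibroblast, T cell or granulocyte marker that was tested passed. The part of these other cells in the values of Mlst8 and Tsc1 was not tested. In bulk libraries a smaller share of cells and less RNA per cell cannot be told apart.

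Akt1s1 (ENSMUSG00000011096, chromosome 7, 44848991 to 44855421, plus strand) encodes PRAS40, a substrate and inhibitor of mTORC1. It stood at 19.2, 17.3 and 16.9 CPM in cre_LP, against 22.5, 18.9 and 13.95 CPM in wt_LP, with the cre range inside the wt one (log2 change -0.04, SE 0.23, edgeR adjusted p = 0.972). In epithelial cells it stood at 62.8, 30.8, 57.3 and 47.9 CPM in cre_EC, against 39.8, 41.7, 43.8 and 49.9 CPM in wt_EC. The lowest and the highest epithelial libraries were both cre ones, and cre_EC 8 was the low one (log2 change 0.17, SE 0.18, edgeR adjusted p = 0.569). Akt1s1 fell by 1.37 on the log2 scale in macrophages relative to epithelial cells (SE 0.16, edgeR adjusted p = 6.94e-07), with no overlap. Tbc1d17, which shares 89 exonic bases with Akt1s1 on the opposite strand, was higher in cre_EC than in wt_EC (log2 change 0.59, SE 0.12, edgeR adjusted p = 0.0109).

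Deptor (ENSMUSG00000022419, chromosome 15, 55112317 to 55259271, plus strand) encodes an inhibitor that binds mTOR in both of its complexes. It stood at 27.0, 42.1, 38.6 and 38.6 CPM in cre_EC, against 56.8, 53.3, 54.0 and 41.1 CPM in wt_EC. Only wt_EC 7 lay within the cre_EC range, below cre_EC 8. No member had separate ranges between the epithelial genotypes, where 16.9% of all genes tested did. The log2 change was -0.50 (SE 0.15, 95% interval -0.83 to -0.17, unadjusted p = 0.00520) and its edgeR adjusted p of 0.0525 lay just above the threshold. It lay below with DESeq2 (adjusted p = 0.0270), with either other count filter, without cre_EC 8 (log2 change -0.57, adjusted p = 0.0294) and without wt_EC 7 (-0.59, adjusted p = 0.0325). It was -0.27 in males alone (edgeR adjusted p = 0.420) and -0.14 after removal of a trend on GC content and transcript length (edgeR adjusted p = 0.528). With the ribosomal RNA share, which was lower in 3 of 4 cre_EC libraries than in any wt_EC library, as a covariate it was -0.37 (edgeR adjusted p = 0.355). The share of mitochondrial counts, at most 10.7% in cre_EC and at least 11.6% in wt_EC, was lowest among wt_EC libraries in wt_EC 7, the wt library low in Deptor, and its part in the level of Deptor was not tested. The 9 macrophage markers summed to 20.6 to 40.3 CPM in cre_EC and 29.2 to 70.0 CPM in wt_EC, and the 6 fibroblast markers to 1.76 to 2.86 CPM in cre_EC and 3.61 to 6.30 CPM in wt_EC. The 8 epithelial markers summed to between 9746 and 10634 CPM in cre_EC and between 7338 and 10188 CPM in wt_EC. The part of these markers' cells in the level of Deptor was not tested. In macrophages Deptor stood at 15.05, 17.4 and 18.1 CPM in cre_LP, against 20.8, 22.9 and 13.7 CPM in wt_LP (log2 change -0.16, SE 0.25, edgeR adjusted p = 0.853). It fell by 1.27 on the log2 scale in macrophages relative to epithelial cells (SE 0.14, edgeR adjusted p = 5.34e-07), with no overlap between the cell types. Together with Tsc2, Rheb and Akt1s1 it made 4 of 9 members with separate ranges between the cell types, where 47.5% of all genes tested had them.

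**Figure D2:**
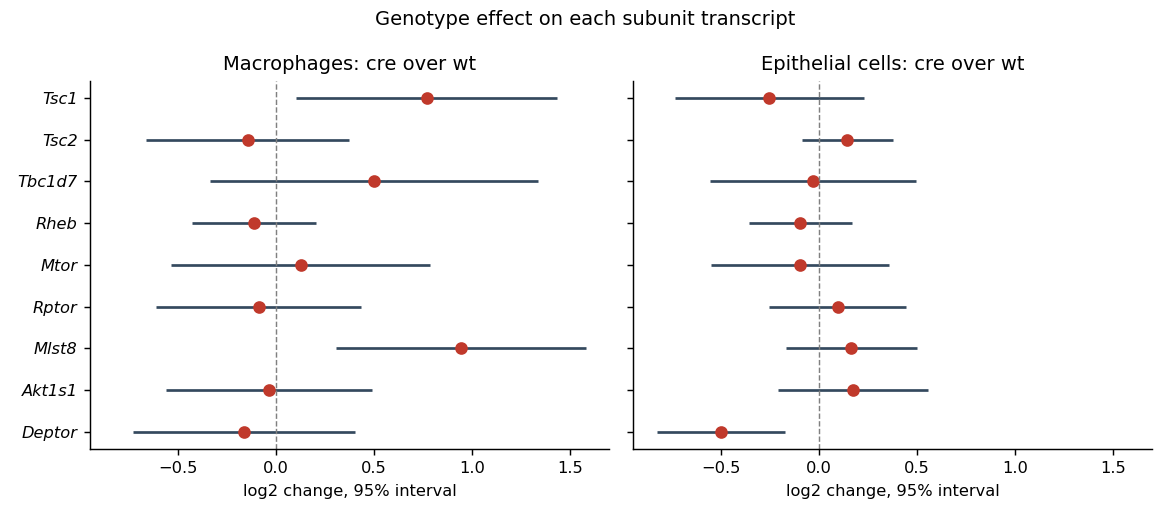
Log2 change of each subunit transcript in cre over wt cells (horizontal axis), in macrophages (left) and epithelial cells (right). Points are edgeR estimates and bars 95% intervals; the intervals of Tsc1 and Mlst8 in macrophages and of Deptor in epithelial cells lie off 0, and none of the 9 passed the adjusted threshold.

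Whether the genotype change differed between the cell types was tested in one fit of all 14 libraries. None of the 9 members passed, where 0.702% of 16375 genes did, and DESeq2 called 0 as well. The changes of Tsc1 and Mlst8 were more positive in macrophages than in epithelial cells, by 1.00 (SE 0.38, unadjusted p = 0.0195, edgeR adjusted p = 0.234) and by 0.75 (SE 0.28, unadjusted p = 0.0159, edgeR adjusted p = 0.218) on the log2 scale. These 2 members were the ones below an unadjusted p of 0.05, as 15.3% of all genes were. The difference was -0.32 for Tsc2 (SE 0.23, edgeR adjusted p = 0.554) and 0.31 for Deptor (SE 0.28, edgeR adjusted p = 0.645), so the lower level of Deptor in cre_EC was not shown to be particular to epithelial cells.

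Per length of transcript, Rheb stood highest of the 9 in every group on the deposited FPKM scale (reads scaled by transcript length and library size), followed by Akt1s1 and Tsc2. In cre_LP the mean levels were 58.3 FPKM for Rheb, 5.87 for Akt1s1, 4.13 for Tsc2, 3.77 for Rptor, 3.09 for Tbc1d7, 2.43 for Mlst8, 2.15 for Tsc1, 1.93 for Mtor and 1.57 FPKM for Deptor. In wt_LP they were 63.3 FPKM for Rheb, 6.04 for Akt1s1, 4.58 for Tsc2, 4.02 for Rptor, 2.18 for Tbc1d7, 1.78 for Mtor, 1.76 for Deptor, 1.27 for Mlst8 and 1.27 FPKM for Tsc1. The library ranges of neighbours in this order overlapped in 6 of 8 pairs in cre_LP, where only Rheb and Akt1s1 stood clear of the next, and in 5 of 8 in wt_LP, where Rheb, Rptor and Tbc1d7 did. In cre_EC the mean levels were 24.4 FPKM for Rheb, 15.3 for Akt1s1, 6.38 for Tsc2, 3.78 for Mlst8, 3.16 for Deptor, 2.95 for Tbc1d7, 2.46 for Rptor, 1.11 for Mtor and 0.93 FPKM for Tsc1. In wt_EC they were 25.3 FPKM for Rheb, 13.2 for Akt1s1, 5.60 for Tsc2, 4.34 for Deptor, 3.28 for Mlst8, 2.93 for Tbc1d7, 2.24 for Rptor, 1.15 for Mtor and 1.08 FPKM for Tsc1. There the neighbours overlapped in 4 of 8 pairs in either genotype, and Rheb, Akt1s1, Tsc2 and Rptor stood clear of the next. In epithelial cells Mtor, the kinase, was the lowest of the 5 mTORC1 transcripts in either genotype. The inhibitor transcripts Akt1s1 and Deptor stood higher there than in macrophages. The order rests on the transcript length used: the deposited FPKM imply 1784 bases for Rheb and 1263 for Tbc1d7, whereas the longest annotated transcripts hold 4046 and 2624. With the longest transcripts, Akt1s1 stood above Rheb in both epithelial groups and Tbc1d7 stood last in both macrophage groups.

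**Figure D3:**
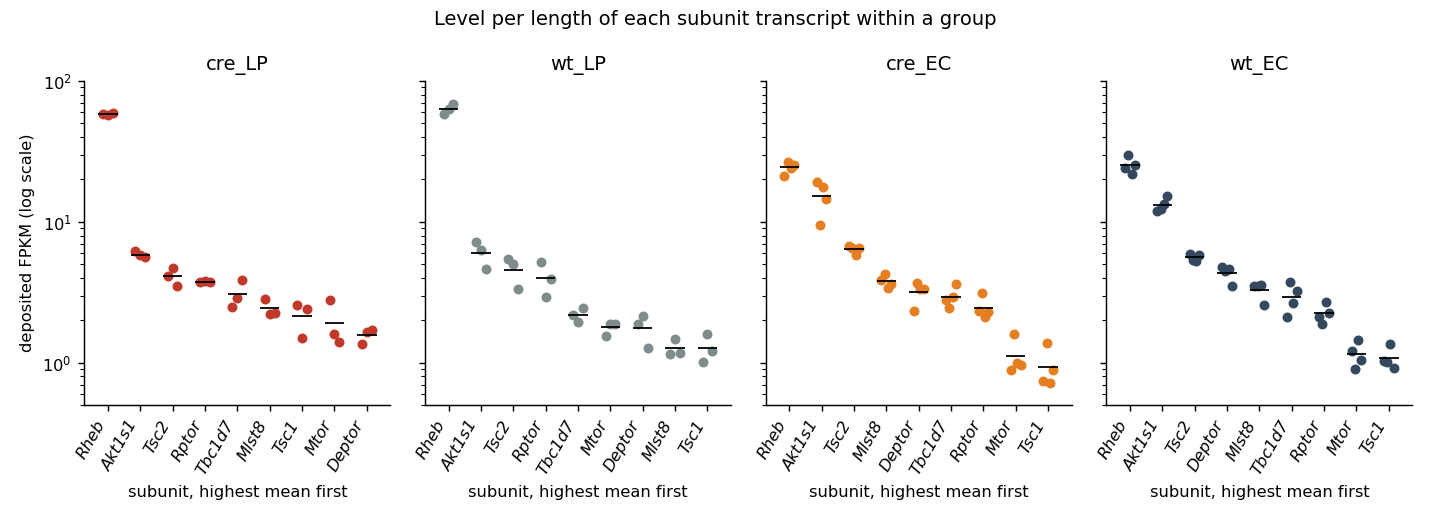
Deposited FPKM (log scale) of the 9 subunit transcripts in each group, ordered by the group mean: points are libraries and bars are means. Rheb stands highest in each group, at 58.3 FPKM in cre_LP, 63.3 in wt_LP, 24.4 in cre_EC and 25.3 in wt_EC, and the gap to Akt1s1 is narrower in epithelial cells.

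Ratios of subunit transcripts within a library, on the FPKM scale, show the same data without the scaling between libraries. The ratio of Tsc2 to Tsc1 averaged 2.08 in cre_LP (range 1.46 to 3.16) and 3.76 in wt_LP (2.77 to 5.38), and 7.28 in cre_EC (4.70 to 9.12) and 5.34 in wt_EC (3.88 to 6.40). The genotype ranges overlap in both cell types. The ratio of Mlst8 to Mtor averaged 1.33 in cre_LP (1.01 to 1.60) and 0.71 in wt_LP (0.63 to 0.78), without overlap, and 3.55 in cre_EC (2.66 to 4.36) and 2.92 in wt_EC (2.44 to 3.91). The smallest two-sided p that an exact permutation of 3 and 3 libraries allows is 0.1, so this ratio was not tested. It rests on the same Mlst8 counts whose separate ranges are given above. The ratio of Tsc2 to Tbc1d7 (0.91 to 1.65 in cre_LP, 1.37 to 2.57 in wt_LP) overlapped between genotypes in both cell types. So did the ratio of Akt1s1 to Mtor (2.22 to 4.02 in cre_LP, 2.45 to 4.63 in wt_LP). The ratio of Rptor to Mtor had overlapping ranges in all groups, with means of 2.13 in cre_LP (1.35 to 2.65), 2.32 in wt_LP (1.54 to 3.36), 2.27 in cre_EC (1.96 to 2.62) and 1.97 in wt_EC (1.74 to 2.17). The ratio of Deptor to Mtor was 0.91 in cre_LP (0.49 to 1.21) and 1.00 in wt_LP (0.68 to 1.20), against 2.93 in cre_EC (2.29 to 3.43) and 3.87 in wt_EC (3.19 to 4.97). The ratio of Rheb to Tsc2, the GTPase over the subunit that switches it off, averaged 14.3 in cre_LP and 14.7 in wt_LP, against 3.85 in cre_EC and 4.53 in wt_EC, and no macrophage library overlapped an epithelial one. The size of this last ratio rests on the length behind the FPKM: the longest transcript is 2.27 times that length for Rheb and 0.989 times for Tsc2, so longest transcripts would lower the ratio by the same factor in every library.

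Across all 14 libraries the genes whose log2 CPM followed Tsc2 most closely, of 16374 others, were Fzd3 (Pearson r = 0.9572), Mthfsd (r = 0.9571) and Pomgnt2 (r = 0.9537). These libraries fall into 2 cell types that differ in Tsc2, and no coefficient was computed within a cell type.

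Around the 9 members, 77 further genes of the pathway were read in 6 lists: mTORC2 partners, the Rag GTPases with Ragulator and folliculin, the GATOR and KICSTOR complexes with amino acid sensors, kinases upstream of the TSC complex, substrates and effectors of mTORC1, and the assembly chaperones of mTOR. In macrophages, 0 of the 73 that were tested passed between genotypes by edgeR, with 15 below an unadjusted p of 0.05, and DESeq2 called 1, Rragd. Over all genes tested there by edgeR, 0.944% passed and 12.8% stood below that unadjusted level. The median log2 change of the lists was 0.02. Rragd, a Rag GTPase that brings mTORC1 to lysosomes, stood at 13.5, 4.60 and 10.02 CPM in cre_LP, against 1.43, 0.15 and 1.99 CPM in wt_LP. All cre_LP libraries lay above all wt_LP ones, on 37 to 79 counts in cre_LP and 1 to 15 counts in wt_LP (log2 change 2.95, SE 0.69, edgeR adjusted p = 0.104). Separate ranges in macrophages were found for 19.8% of all genes tested. Rragd met the minimum of 10 counts only through cre_LP, where it is high, so nothing is read from its direction or separate ranges. It passed with all 14 libraries in one fit (edgeR adjusted p = 0.00978) and without a count filter (edgeR adjusted p = 0.0362). The smallest p of each other list belonged to genes that did not pass either: the GATOR subunit Wdr24 (log2 change 1.17, adjusted p = 0.239), the translation repressor Eif4ebp2 (0.49, adjusted p = 0.274), the mTORC2 partner Prr5 (-0.83, adjusted p = 0.322), the chaperone Ruvbl2 (-0.74, adjusted p = 0.347) and the kinase Rps6ka1 (-0.33, adjusted p = 0.392), all by edgeR. Of these, Wdr24 passed with all 14 libraries in one fit (edgeR adjusted p = 0.0469).

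In epithelial cells, 7 of 71 tested pathway genes passed (9.86%), close to the 9.17% of all genes, with 3 higher and 4 lower in cre_EC (over all genes, 5.64% higher and 3.53% lower). Higher were Lamtor5, a Ragulator subunit (log2 change 0.56, SE 0.11, edgeR adjusted p = 0.00964), Prkag1, a regulatory subunit of the energy sensor AMPK (0.51, SE 0.11, edgeR adjusted p = 0.0144), and Rps6kb2, an S6 kinase (0.55, SE 0.15, edgeR adjusted p = 0.0349). Lamtor5 averaged 97.7 ± 11.3 CPM in cre_EC and 65.7 ± 3.29 CPM in wt_EC (SD, n = 4 each). Lower were Rragd (-2.00, SE 0.39, edgeR adjusted p = 0.00978), the translation factor Eif4b (-0.41, SE 0.11, edgeR adjusted p = 0.0330), the AMPK catalytic subunit Prkaa2 (-0.65, SE 0.18, edgeR adjusted p = 0.0379) and the mTORC2 scaffold Rictor (-0.93, SE 0.28, edgeR adjusted p = 0.0477). Rragd averaged 0.58 ± 0.08 CPM in cre_EC, on 4 to 7 counts a library, and 2.38 ± 0.85 CPM in wt_EC, on 14 to 31. It met the minimum of 10 counts only through wt_EC, where it is high, so nothing is read from its direction. The chaperone Telo2 (0.73, edgeR adjusted p = 0.0571) had the smallest p of its list and did not pass, but it did with DESeq2 (adjusted p = 0.0237), without a filter, with limma on FPKM, with sex as a covariate and without wt_EC 6. Lamtor5 and Rragd kept their calls whichever library was left out. Their edgeR adjusted p then reached 0.0454 for Lamtor5 and just under 0.05 for Rragd. The call of Prkag1 was lost without cre_EC 5 or cre_EC 9, that of Rps6kb2 without cre_EC 5, 9 or 10 or wt_EC 2 or 4, and that of Prkaa2 without cre_EC 5, 9 or 10 or wt_EC 4 or 6. The calls of Rictor and Eif4b were lost without cre_EC 5, 9 or 10 or wt_EC 2, 4 or 7. The edgeR adjusted p reached at most 0.0569 for Prkag1, 0.134 for Rps6kb2, 0.116 for Prkaa2, 0.146 for Rictor and 0.123 for Eif4b. Without wt_EC 6 the change of Prkaa2 was -0.43. None of the 7 was called when males alone were used, with the ribosomal RNA share as a covariate, with all 14 libraries in one fit (edgeR adjusted p from 0.0747 to 0.146) or with limma on unfiltered FPKM (adjusted p from 0.0520 to 0.331), while each kept its direction. Prkaa2 was -0.37 with the covariate and Rictor -0.59 in males. Removal of the GC and length trend also ended the calls of Prkag1 (0.30, edgeR adjusted p = 0.135), Prkaa2 (-0.22, 0.439), Rictor (-0.57, 0.253) and Rps6kb2 (0.53, 0.0577). The calls of Eif4b and Prkaa2 were lost with limma on FPKM at either pseudocount, and that of Rictor with sex as a covariate (edgeR adjusted p = 0.0572). The part of the mitochondrial share given above in these calls was not tested.

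**Figure D4:**
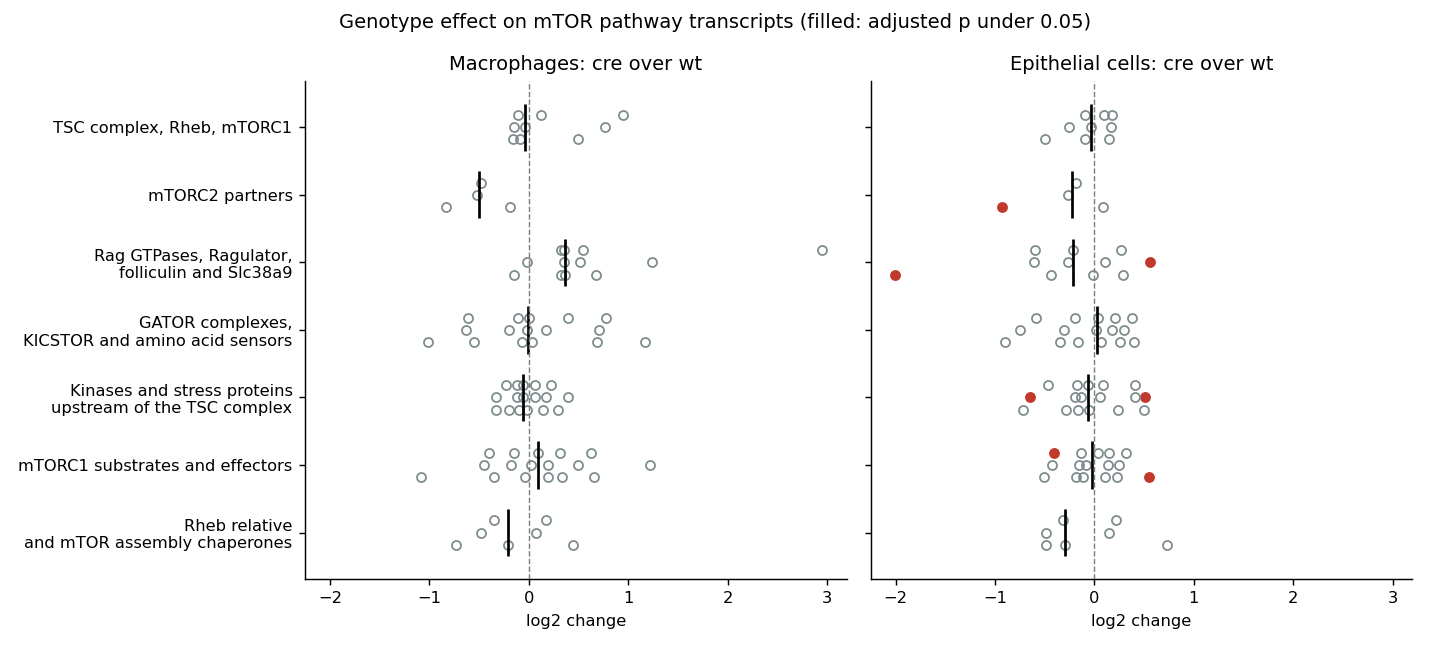
Log2 change in cre over wt cells (horizontal axis) of the 9 members and of the tested genes in the 6 pathway lists, in macrophages (left) and epithelial cells (right). Each point is a gene, filled where its edgeR adjusted p is under 0.05, and vertical bars are list medians; 0 listed genes are filled in macrophages and 7 in epithelial cells, and the rightmost point in macrophages is Rragd at 2.95.

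In the test of whether the genotype change differed between the cell types, 2 of 75 pathway genes were called, Rragd and Prkaa2, where 0.702% of all genes were (0.47% with the more positive change in macrophages). The difference was 4.92 on the log2 scale for Rragd (SE 0.77, edgeR adjusted p = 0.00865). In each cell type Rragd met the count minimum only through the group where it is high, so nothing is read from its direction. Rragd kept its call whichever library was left out, but not with the replicate number as a block (5.11, edgeR adjusted p = 0.0849), in males alone (4.10, edgeR adjusted p = 0.137) or with the ribosomal RNA share as a covariate (4.68, edgeR adjusted p = 0.131). Prkaa2 did not pass the count filter in macrophages and entered this fit only through epithelial cells, where it is high, so nothing is read from its call or from the count of 2. It had 15 counts over the cre_LP libraries and 1 over the wt_LP libraries, a ratio of 16.9 with an exact conditional 95% interval of 2.60 to 711 for counting error only. In epithelial cells Prkaa2 averaged 18.3 ± 1.30 CPM in cre_EC and 28.4 ± 8.07 CPM in wt_EC (SD, n = 4 each).

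Between cell types, 50 of 75 tested pathway genes passed (66.7%, against 73.7% of all genes), 33 higher and 17 lower in macrophages. The Rag GTPase, Ragulator and folliculin list was called in one direction: 8 of 12 were higher and 0 lower, with a median log2 difference of 1.50 beside 0.07 over all genes. Of all genes, 39.4% were higher and 34.3% lower. Fnip2, among the 8, passed the count filter only through macrophages, where it is high, so nothing is read from its direction. The widest differences of this list were in folliculin, Flcn (2.80, SE 0.15, edgeR adjusted p = 2.83e-11), which acts on Rag GTPases, and its partner Fnip1 (3.11, SE 0.18, edgeR adjusted p = 6.71e-11). Of the 6 AMPK subunits listed, Prkab2 was higher in macrophages (1.80, SE 0.20). Prkab1 (-1.48, SE 0.14), Prkag2 (-0.71, SE 0.19) and Prkag1 (-0.63, SE 0.10) were lower. Prkag2 and Prkag1 were named after their values were seen, and Prkaa1 was not called (0.19, edgeR adjusted p = 0.248). Prkaa2 (-6.75, SE 0.29) passed the count filter only through epithelial cells, where it is high, so nothing is read from the direction of its call. Among mTORC2 partners, Prr5l (4.87, SE 0.18) and Rictor (0.99, SE 0.21) were higher and Prr5 (-1.10, SE 0.17) was lower. Among amino acid sensors and their complexes, Castor2 (2.72) and Sesn1 (2.54), of the arginine and leucine sensor families, were higher, and Wdr24 (-1.56) and Itfg2 (-1.04), of GATOR and KICSTOR, were lower. Among substrates and effectors, the transcription factor Mitf (5.75) and the adaptor Grb10 (4.79) were higher, and the translation repressors Eif4ebp3 (-5.25) and Pdcd4 (-1.68) were lower. Mitf and Grb10 passed the count filter only through macrophages and Eif4ebp3 only through epithelial cells. Each is high there, so nothing is read from the direction of these calls. Among chaperones, Wac (1.12) and Tti2 (0.79) were higher and Ruvbl2 (-1.49) was lower. Each gene named here as higher or lower had an edgeR adjusted p of at most 0.0138, and without cre_LP 9 the call of Tti2 was lost (log2 difference 0.50, edgeR adjusted p = 0.0945). The fibroblast, endothelial, dendritic cell and B cell markers were also higher in macrophage libraries, all 6, 3, 5 and 5 of them by the same test. The summed fibroblast markers stood at 837 to 4723 CPM over macrophage libraries and at 1.76 to 6.30 CPM over epithelial ones. The part of these cells in the differences between cell types was not tested.

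**Figure D5:**
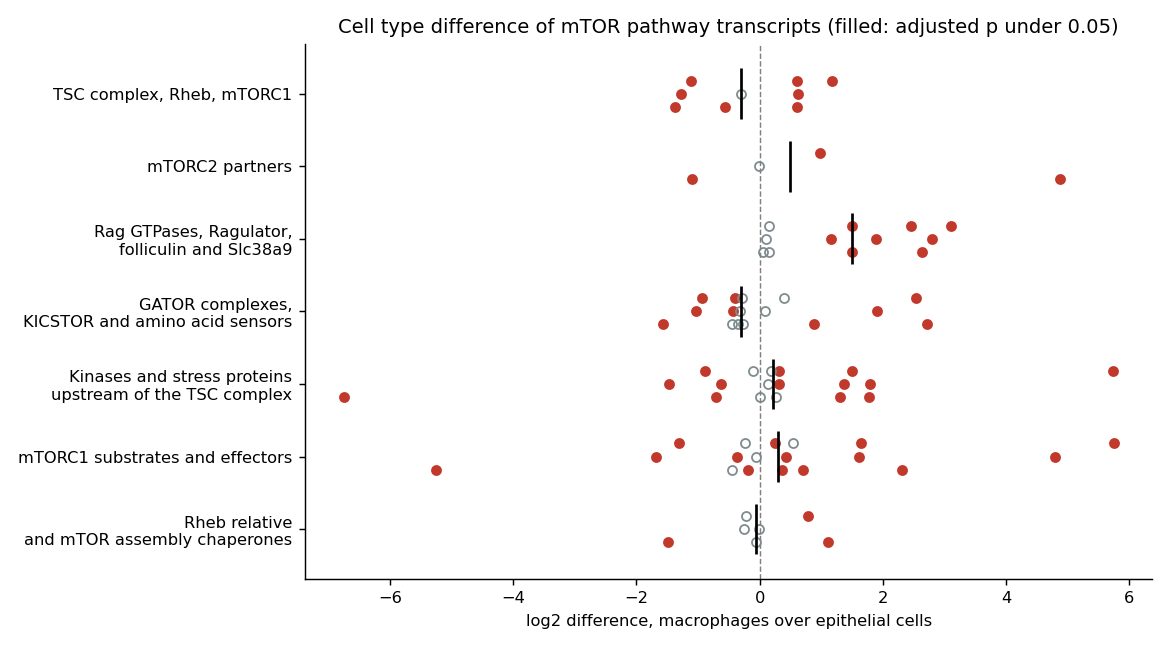
Log2 difference of macrophages over epithelial cells (horizontal axis) for the 9 members and the tested genes of the 6 pathway lists. Each point is a gene, filled where its edgeR adjusted p is under 0.05, and vertical bars are list medians. The Rag GTPase, Ragulator and folliculin list lies to the right, with a median of 1.50. Prkaa2 is the leftmost point at -6.75 and passed the count filter only through epithelial cells, where it is high.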

How the data were processed

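RNA of 14 libraries was read from the tables the authors deposited for the series: raw counts per gene (whole numbers, not normalized) and FPKM computed by the authors. Smart-seq2 cDNA, which keeps no strand, was made into Nextera XT libraries and read as 50 bp single reads, per the labels' protocols. The submitters' processing notes list GRCm38 as the genome, with the tools DESeq2 1.24.0, Picard 2.19.2 and STAR 2.5.2b; how reads were counted is not given in the sources used here. Groups, sex and the numbers in the titles came from the labels. Nothing else says which libraries are separate animals.

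The count test was edgeR 4.0.16 (R 4.3.3) with TMM scaling, a filterByExpr minimum of 10 counts and robust quasi-likelihood fits; p-values were adjusted over all genes tested by Benjamini-Hochberg and called at 0.05. Genotype was fitted within each cell type; a fit of all 14 libraries in 4 groups gave the cell type difference (genotypes weighted equally) and the difference between genotype effects. CPM were computed on TMM library sizes. An SE is the absolute log2 change over the root of its F statistic, and intervals cover counting error and the spread between libraries only. Alternatives were RLE scaling, DESeq2 1.42.0 without independent filtering, no filter, a filter of 50, limma 3.58.1 on log2(FPKM + 1) (mean FPKM of at least 1, also a pseudocount of 0.1 or no filter), sex or ribosomal RNA share as covariate, males only, 1 fit for all libraries, a spline trend on GC content and length, a replicate block, and each library left out. Length choices for the order of levels were added after seeing the data. Models were tested on simulated data.

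Coordinates come from GENCODE M21 (GRCm38), whose IDs and locations matched 98.95% of genes in the files. The 9 members, the 6 pathway lists and the marker lists were chosen with earlier results of these data known. Named beyond the members were, per list, up to 3 called genes with the smallest p in each genotype comparison (or the 1 with the smallest p), up to 2 called genes in each direction between cell types (mean of at least 1 CPM), genes whose exons overlap a member, the 3 genes most like Tsc2, and, chosen after their values were seen, neighbours within 1 kb and genes with a called difference of effects. Of the genes this rule takes, 2 are not reported here. The numbers in the titles were not used to pair the samples in the main fits: in 6 same-numbered pairs the correlation of deviations ran from -0.0316 to 0.0861. Such correlations between different cell types cannot tell whether a pair came from 1 animal, and each pair had the same sex. No 2 libraries of a group were copies (smallest chi-square per degree of freedom 6.72).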

Additional observations from a re-analysis of the deposited data

Results flagged for a closer look

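In groups of 4 libraries, 2 of 18 combinations of a member and an epithelial group held a library far from the others, where chance gives about 1 in 20. Mtor stood at 18.2 CPM in cre_EC replicate 8, against 10.1 to 11.3 CPM in the other cre_EC libraries. Mlst8 stood at 13.1 CPM in wt_EC replicate 7, against 18.2 to 18.4 CPM in the other wt_EC libraries. The genotype effect differed between macrophages and epithelial cells for Rragd, by 4.92 on the log2 scale (edgeR adjusted p = 0.00865). Rragd was higher in 3 of 3 cre_LP libraries than in any wt_LP library, and lower in 4 of 4 cre_EC libraries than in any wt_EC library. Of all genes tested, 19.8% had separate ranges in macrophages and 16.9% in epithelial cells, in either direction. In each cell type Rragd met the count minimum only through the group where it is high. Nothing is therefore read from the direction of its call or from its separate ranges. This call was lost with the replicate block (edgeR adjusted p = 0.0849), in males alone (0.137) and with the ribosomal RNA share as a covariate (0.131). The same fit gave 4.33 for Prkaa2 (edgeR adjusted p = 0.0183), from which nothing is read: it rests on 15 counts in cre_LP and 1 count in wt_LP, Prkaa2 passed the filter only through epithelial cells, and with limma on FPKM the value was 0.50 (adjusted p = 0.236).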

How the results depend on the processing

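No member passed the test between genotypes in macrophages under the alternatives run, leaving out each library included, except for 1 (Mlst8) with all 14 libraries in a single fit. In epithelial cells the count was 1 (Deptor) with DESeq2, without a filter and with a filter of 50 counts, and 0 to 1 when each library was left out; it was 0 under the other alternatives. For the difference of genotype effects it was 0 under every alternative. Between cell types it was 8 of 9 under each, except that Tsc1 and Mtor were not called among males. The pathway lists in macrophages gave 1 call with DESeq2, Rragd, and 0 with RLE scaling; of the genes named there, Rragd was also called with all 14 libraries in a single fit and without a filter, and Wdr24 with all 14 libraries. Over all genes, genotype calls ran from 2 (sex as covariate) to 495 (DESeq2) in macrophages, against 133, and from 0 (limma on FPKM without a filter) to 1947 (without cre_EC 8) in epithelial cells, against 1243. Leaving out each library gave 29 to 87 calls in macrophages and 178 to 1947 in epithelial cells. For the difference of effects they ran from 8 to 487, against 115, and the 8 came with the replicate block. Under that block, on 12 libraries, 0 members were called for the difference of effects, as without it, while the call of Rragd was lost (edgeR adjusted p = 0.0849). Same-numbered libraries correlated best with each other in 3 of 6 pairs, the wt ones. Whether these numbers pair the samples by animal is not settled by this. If they do, the main fits over both cell types treated libraries of 1 animal as independent.

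Uncalled genotype changes turned sign as follows (log2), and the cause was not tested. In macrophages, with sex as covariate and in males alone, Tsc2 was 0.31 and 0.32, Akt1s1 0.35 and 0.36, and Deptor 0.30 and 0.31; Akt1s1 was 0.031 after removal of the GC and length trend, and Mtor was -0.053 with the ribosomal RNA share as covariate. In epithelial cells, Tbc1d7 was 0.015, 0.023 and 0.015 with limma on FPKM (pseudocount 1, pseudocount 0.1 and no filter). Among males there, Tbc1d7 was 0.0040, Rheb 0.081, Rptor -0.012 and Akt1s1 -0.058. With the ribosomal RNA share as covariate, Tsc1 was 0.15, Mtor 0.30 and Akt1s1 -0.20. After removal of the GC and length trend, Rheb was 0.044, Mtor 0.075 and Akt1s1 -0.043. For the difference of effects, Tsc2 was 0.13 and Akt1s1 0.36 in males, and Mtor was -0.36 and Akt1s1 0.21 with the ribosomal RNA share. When each library was left out, macrophage changes ran from -0.25 to 0.32 for Mtor, from -0.27 to 0.15 for Rptor and from -0.20 to 0.11 for Akt1s1. Epithelial changes ran from -0.16 to 0.11 for Tbc1d7, from -0.15 to 0.0039 for Rheb, from -0.31 to 0.028 for Mtor and from -0.035 to 0.19 for Rptor. Differences of effects ran from -0.16 to 0.015 for Rheb, from -0.21 to 0.42 for Mtor and from -0.41 to 0.045 for Rptor. Tbc1d7, with 20 to 66 counts a library, was the member most limited by depth.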
